A study of Mus musculus with 23 samples.

Results

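Loss of the retinoblastoma gene Rb and its relative p107 was examined in mouse retinas that were also floxed for Dicer1. The comparison uses 7 of the 23 samples of the series: 4 retinas titled Chx10Cre, Rb lox/lox, p107 -/- and Dicer1 lox/lox (DKO_DicKO) against 3 retinas titled Dicer1 lox/lox (DicKO). They were chosen by these titles and by the label of their profiling set, and every assay of the panel was read. The same effect with Dicer1 present came from the set's 3 samples that carry Chx10Cre, Rb lox/lox and p107 -/- (DKO) and its 3 wild-type (WT) samples. All samples are of mixed strain background. Chx10Cre is active in retinal progenitors, so the floxed alleles are lost from cells of that lineage, whereas p107 is missing from every cell. The DicKO and WT titles name no Cre. As labelled, the groups of either comparison therefore differ in the Cre as well as in Rb and p107. Without a Cre, DicKO would keep Dicer1, so DKO_DicKO and DicKO may also differ in Dicer1 loss. These differences cannot be told apart. Samples said below to be without Dicer1 are those titled Dicer1 lox/lox. The labels give neither ages nor litters and do not say that samples came from different animals, and the p-values therefore cover the sample-to-sample spread alone, which may be technical. How much Dicer1 was lost was not measured, nor were the transcripts of Rb and p107.

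Rb and p107 bind E2F transcription factors and hold back entry into the cell cycle. Dicer1 cuts the hairpin precursors of most microRNAs (miRNAs) into mature strands that then repress target transcripts. A retina that has lost Dicer1 holds mature miRNAs made before the loss, those of cells that escaped recombination, those of cells outside the Cre lineage, and the few that form without Dicer1. Target choice depends mainly on the seed, bases 2 to 8 of the mature strand, and miRNAs with the same seed form a family.

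The mature sequences shown belong to the miRNAs on which the results turn, and are RefSeq entries of the mouse assembly GRCm38.p6 with the seed in capitals. The deposited table names an assay without its arm in most cases, and the arm printed is the strand that the unstarred older name stood for. The first group holds the 8 miRNAs called in a test of whether the response to Rb and p107 loss differed by Dicer1 status. For miR-497 and miR-365 the call rests on values set to a floor, as described below.
miR-29a-3p: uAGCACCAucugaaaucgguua
miR-365-3p: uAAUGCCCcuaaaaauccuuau
miR-497a-5p: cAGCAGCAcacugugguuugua
miR-195a-5p: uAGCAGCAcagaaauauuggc
miR-181a-5p: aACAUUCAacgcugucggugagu
miR-296-5p: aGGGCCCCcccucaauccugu
miR-744-5p: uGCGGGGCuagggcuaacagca
miR-218-5p: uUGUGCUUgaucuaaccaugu
The strands of miR-497 and miR-195 share the seed AGCAGCA and start 332 bases apart, at chr11:70234730-70234751 and chr11:70235062-70235082 on the plus strand. miR-29a lies at chr6:31062673-31062694 on the minus strand and miR-296 at chr2:174267093-174267113 on the minus strand. miR-744 lies within Map2k4 at chr11:65734799-65734820 on the minus strand. The mature strand of miR-181a is encoded at chr1:137966468-137966490 and within Nr6a1 at chr2:38852741-38852763, both on the plus strand. That of miR-218 is encoded at chr5:48223966-48223986 within Slit2 and at chr11:35616840-35616860 within Slit3. miR-365 is encoded at chr11:79726467-79726488 and, within the non-coding genes Gm32817 and Gm53058, at chr16:13453895-13453916.

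The second group completes the 10 lowest p-values between DKO_DicKO and DicKO, shown because they come nearest to a difference in the absence of Dicer1, and adds miR-30a for its seed.
miR-184-3p: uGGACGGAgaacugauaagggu
miR-100-5p: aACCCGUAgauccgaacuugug
miR-30e-5p: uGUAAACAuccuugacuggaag
miR-30a-5p: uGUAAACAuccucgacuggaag
miR-760-3p: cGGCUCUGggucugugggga
miR-190b-5p: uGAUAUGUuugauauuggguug
miR-106b-5p: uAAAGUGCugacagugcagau
miR-301a-3p: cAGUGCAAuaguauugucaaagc
miR-184 lies at chr9:89802263-89802284 on the minus strand, and miR-100 at chr9:41531437-41531458 within its host transcript Mir100hg. miR-30e, at chr4:120772660-120772681 within Nfyc, and miR-30a, at chr1:23272274-23272295, share the seed GUAAACA. miR-106b, at chr5:138165787-138165807 within the replication gene Mcm7, belongs to a paralogous cluster of miR-17~92. miR-760 lies at chr3:122293615-122293634 on the minus strand, miR-190b at chr3:90070030-90070051 on the plus strand, and miR-301a within Ska2 at chr11:87113054-87113076.

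The values are quantification cycles (Cq) of stem-loop RT-qPCR, in which each mature miRNA is copied with its own hairpin primer and amplified; a lower Cq means more template. An assay counted as detected at a Cq of 32 or lower. Of 522 assays, 179 were detected in at least 1 of the 7 samples and 62 in all 7, whereas 343 were detected in none. An undetected well is no proof of a low level. In every sample of the other profiling set, 31 assays undetected in all 13 samples of this set had a Cq of 30 or lower. Those 13 samples include WT and DKO. Of the 343 assays, 95 had such Cq values in the other set. Its labels name no Dicer1 loss, so the 95 alone cannot tell a failed well from a low level. No assay was detected in all samples of 1 of the groups and in none of the other.

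Cq values over the shared assays had similar group means with and without Rb and p107, with a wide spread within the groups. Over the 61 assays detected in all 13 samples of the set, the mean Cq was 27.58, 25.40 and 29.06 in DicKO 1 to 3 (27.3 ± 1.84, SD, n = 3) and 26.08, 27.45, 27.68 and 28.18 in DKO_DicKO 1 to 4 (27.3 ± 0.896, SD, n = 4). The 4 DKO_DicKO samples thus lie within the range of the 3 DicKO samples. The difference of means was 0.00228 cycles (two-sided exact permutation test, p = 1, adjusted over 2 tests 1, where the smallest p these numbers allow is 0.0286). Leaving out DicKO 2 moved it to −0.970 cycles and leaving out DicKO 3 to 0.806, so its size and direction hung on single samples. The smallest shift that could have been seen was not determined, and with these SDs it may be larger than those moves. Mean Cq was 24.5 in WT and 24.8 in DKO. In bulk tissue, fewer cells of a type and less RNA per cell cannot be told apart. The number of detected assays was 112, 169 and 91 in DicKO and 157, 123, 109 and 92 in DKO_DicKO, a difference of −3.75 (exact permutation test, p = 0.857, adjusted p = 1). The number detected followed the mean Cq: DicKO 2 and DKO_DicKO 1, the samples with the earliest Cq, had the most assays detected.

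**Figure D1:**
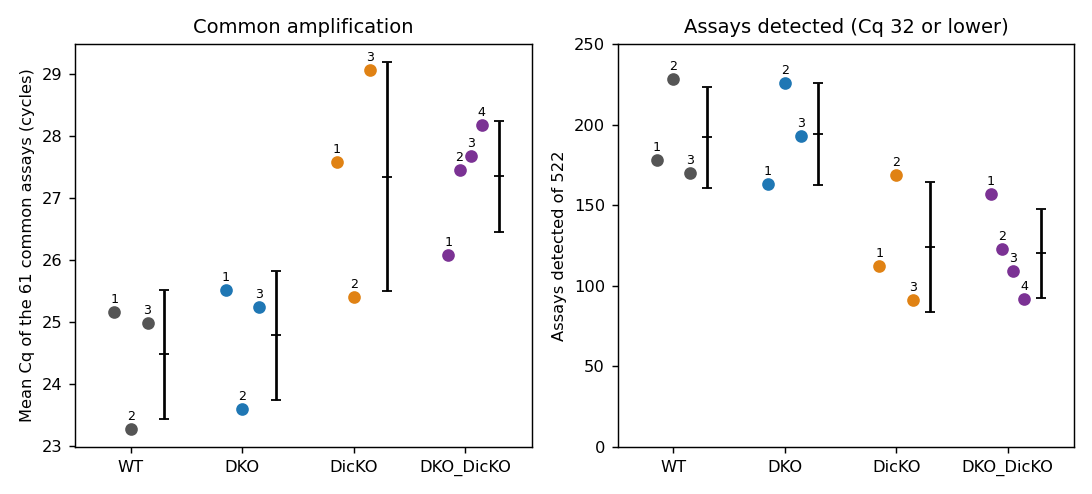
Mean Cq of the 61 common assays (left, cycles) and number of assays detected out of 522 (right) in each sample, numbered by replicate, with group mean and SD as bars. DKO_DicKO, at 26.08 to 28.18 cycles, lies inside the range of DicKO, 25.40 to 29.06 cycles.

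Levels are given below as log2 relative quantity: the mean Cq of those 61 assays minus the assay's own Cq, so that 1 unit is 1 cycle and 0 is the mean of the common assays. Values that were undetermined or lower than −2.94 were set to that floor. It is the highest scaled value that a Cq of 32 takes in any sample, is set by DicKO 3, and raised 235 of the 853 values detected in the 7 samples. Samples were compared by the SD, over the 61 assays, of their differences in level. DKO_DicKO 3 stood furthest from its own group, with SDs of 1.07 to 1.37, and its nearest sample was DicKO 3 at 0.951. Its nearest WT or DKO sample lay almost as close, at 0.957, whereas this distance was 1.02 to 1.55 for the other 6 samples. DicKO 2 and DKO_DicKO 1, from different groups, were nearest to each other at 0.584. For 5 assays the Cq lay within a range of 2 cycles over the 11 samples of the set other than DKO_DicKO 4 and DKO 1. In DKO_DicKO 4 and DKO 1 respectively, 4 and 3 of them were undetermined or over 2 cycles later than in any of the 11. The assays were chosen with those 2 samples left out, so none of the 11 could count as late. The counts therefore do not test whether DKO_DicKO 4 stood apart. Several differences are also given without DKO_DicKO 3 or 4, or without DicKO 3, the sample with the latest Cq.

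No miRNA passed the test between DKO_DicKO and DicKO. Of 99 assays tested with limma, 0 were called at an adjusted p under 0.05 (0% higher and 0% lower), and the lowest adjusted p was 0.0875. An unadjusted p under 0.05 was found for 12 assays, 8 with higher and 4 with lower levels in DKO_DicKO. The median difference over all 99 was −0.02 on the log2 scale and the median size of a difference 0.36. The differences ran from −2.08 for miR-760 to 1.68 for let-7b, and 13 were over 1 in size. The groups did not overlap for 11 assays (11.1%), 7 with higher levels in DKO_DicKO (7.07%) and 4 with lower levels (4.04%). Among these, miR-100, miR-744, miR-190b and miR-27b were not detected in every sample of the group where they were low. They entered the test only through the group where they were high.

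The data bound only in part what could have been missed, because the floor replaces low values with a constant. The half-width of the 95% confidence interval had a median of 0.66 and ran from 0.24 to 2.99. The interval lay within −1 to 1 for 42 of the 99 assays and within −2 to 2 for 78. For the remaining assays a change of over 2 units in at least 1 direction lies inside the interval. Only 54 of the 99 assays had no sample of the 7 at the floor. For the others the floor can narrow the interval, so a narrow interval does not exclude a change. For miR-497, with all 7 samples at the floor, the difference was 0 ± 0.18.

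Results depended on a few choices. Scaling to the median of the common assays in place of their mean moved the median of all assays by 0.24 and then called 7 assays, all higher in DKO_DicKO: miR-100, miR-106b, miR-181a, miR-184, miR-296, miR-301 and miR-744. Without DKO_DicKO 3, 3 assays were called: miR-184, miR-296 and miR-30e. Without any scaling 0 were called and the lowest adjusted p was 0.999.

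miR-184, known from lens and corneal epithelium and present in retina, had the lowest p. Its levels were −2.44, −2.94 and −2.18 in DicKO 1 to 3 and −0.88, −0.52, −1.88 and −0.81 in DKO_DicKO 1 to 4. All 4 DKO_DicKO samples were above all 3 DicKO samples, with DKO_DicKO 3 nearest to them. The difference was 1.50 ± 0.36 (SE; 95% interval 0.70 to 2.30) with an adjusted p of 0.0875, which misses the threshold. Leaving out single samples gave 1.29 (without DicKO 2) to 1.77 (without DKO_DicKO 3, adjusted p = 0.0117).

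miR-296 had the next lowest p. It stood at −2.16, −1.77 and −2.34 in DicKO and at −1.14, −1.08, −1.74 and −0.78 in DKO_DicKO. The groups did not overlap, but DKO_DicKO 3 and DicKO 2 were close. The difference was 0.90 ± 0.22 (95% interval 0.42 to 1.39, adjusted p = 0.0875). Single leave-outs gave 0.72 (without DicKO 3) to 1.08 (without DKO_DicKO 3, adjusted p = 0.00925).

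miR-181a, the tested 1 of 2 assays of the miR-181 family, is abundant in the inner retina. Its levels were 0.10, 0.67 and 0.11 in DicKO and 1.02, 0.90, 1.00 and 1.15 in DKO_DicKO. The 4 DKO_DicKO samples lay close together (SD 0.10) above all DicKO samples. The difference was 0.73 ± 0.19 (95% interval 0.31 to 1.14, adjusted p = 0.0875) and, without DKO_DicKO 3, 0.72 (adjusted p = 0.0858).

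miR-100, which shares a transcript with let-7 and miR-125 genes, was at −2.15, −1.82 and −2.94 in DicKO and at −1.34, −1.004, −1.80 and −1.71 in DKO_DicKO. The ranges just failed to meet, and the difference was 0.84 ± 0.27 (adjusted p = 0.217). DicKO 3 was undetermined for it, and without that sample the difference was 0.47 (adjusted p = 0.661). miR-106b was at −1.18, −1.24 and −2.14 in DicKO and at −1.13, −1.08, −0.55 and −0.75 in DKO_DicKO, and miR-301 at −2.10, −1.59 and −1.77 against −1.44, −1.59, −0.92 and −0.85. Their differences were 0.64 ± 0.26 and 0.62 ± 0.26, each with an adjusted p of 0.332, and without DicKO 3 that of miR-106b was 0.28 (adjusted p = 0.732). The groups were separated by narrow gaps in both cases, and for miR-301 the nearest samples, DicKO 2 and DKO_DicKO 2, were almost equal.

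miR-30e had the lowest p among assays with lower levels in DKO_DicKO. It stood at 0.84, 0.45 and 0.60 in DicKO and at −0.47, −0.24, 0.49 and −0.11 in DKO_DicKO. The overlap came from DKO_DicKO 3 alone, which lay above DicKO 2. The difference was −0.72 ± 0.23 (95% interval −1.23 to −0.20, adjusted p = 0.217). Single leave-outs gave −0.59 (without DKO_DicKO 1) to −0.92 (without DKO_DicKO 3, adjusted p = 0.0218). miR-30a-5p, which has the same seed, was at 0.74, 0.79 and 0.68 in DicKO and at 0.19, −0.34, 0.44 and 0.71 in DKO_DicKO, a difference of −0.49 ± 0.22 (adjusted p = 0.388).

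Several of the larger differences came with undetermined wells. let-7b, a member of the let-7 family that builds up as cells differentiate, was at 0.24, 1.11 and −2.94 in DicKO and at 1.05, 0.76, 1.07 and 1.73 in DKO_DicKO. DicKO 3 was undetermined for it, and the difference of 1.68 ± 0.73 became 0.42 without that sample. miR-760 was at −0.13, −1.81 and 1.49 in DicKO and at −2.23, −0.82, −2.94 and −2.94 in DKO_DicKO, where replicates 3 and 4 were undetermined, and differed by −2.08 ± 0.75 (adjusted p = 0.291). Its Cq was 27.70, 27.21 and 27.57 in DicKO, almost the same in each, while the mean Cq of the common assays ran from 25.40 to 29.06 in the same samples. miR-190b was at 0.07, 0.09 and 0.46 in DicKO and at −0.40, −1.10, −0.69 and −2.94 in DKO_DicKO, where replicate 4 was undetermined. Its difference of −1.49 ± 0.60 (adjusted p = 0.332) became −0.92 without that sample, and with a detection limit of Cq 30, which leaves 65 assays, it was the only assay called (−0.95, adjusted p = 0.0236). Beside miR-184, 3 assays with every well detected differed by over 1: miR-188-5p (−1.18), miR-378 (−1.21) and miR-678 (−1.14). The last 2 are among the assays of near-constant Cq, and without DKO_DicKO 4 they differed by −0.21 and −0.82. For miR-744 all DicKO samples were at the floor, where 2 detected values of −4.19 and −3.49 had been raised to it and DicKO 3 was undetermined. DKO_DicKO stood at −2.07, −2.60, −2.84 and −2.09, and the fitted difference of 0.54 ± 0.22 (adjusted p = 0.332) is set by the floor. It was 1.26 without DicKO 3, which lowers the floor.

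Of the assays among the 20 lowest p-values not yet described, miR-101 and miR-27b had groups that did not overlap, and for the rest the groups overlapped. For miR-27b (−0.46) all DKO_DicKO samples were at or just above the floor. miR-101 differed by −0.65 ± 0.31, and by −0.36 without DKO_DicKO 4. miR-101b differed by −0.66 ± 0.33. miR-342-3p differed by 0.97 ± 0.49, and by 0.19 without DicKO 3, in which it was undetermined. miR-135a differed by −0.48 and miR-218 by 0.44, both with an adjusted p of 0.455. miR-138 differed by 0.47, and by 0.18 without DicKO 1. miR-467b, an assay of near-constant Cq that was undetermined in DKO_DicKO 4, differed by −1.24, by −0.73 without that sample and by −2.17 without DicKO 2.

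**Figure D2:**
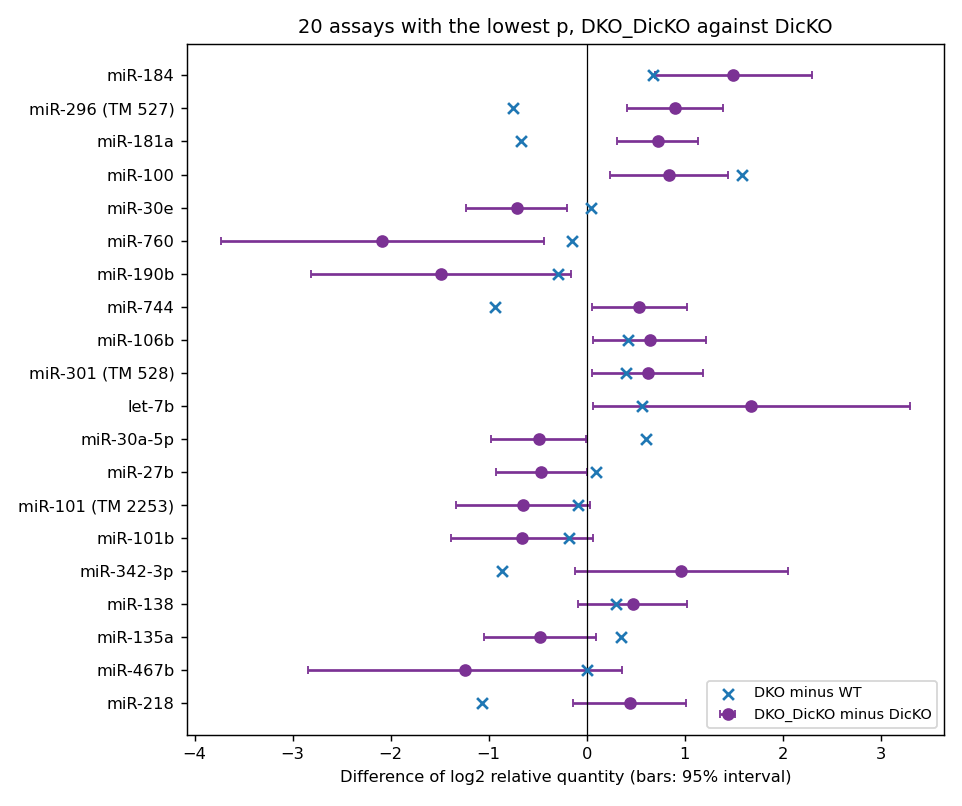
Difference of level, DKO_DicKO minus DicKO, for the 20 assays with the lowest p (circles, log2 relative quantity, bars 95% confidence interval), with DKO minus WT as crosses. miR-184 is highest in order of p at 1.50, and the crosses of several assays, among them miR-296, miR-181a, miR-744 and miR-218, lie on the opposite side of 0.

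With Dicer1 present, 23 of 133 assays were called between DKO and WT (17.3%), groups that as labelled also differ in the Cre. Of those 23, 15 could be tested without Dicer1 and none was called there, and for 5 of the 23 all 7 samples without Dicer1 lay at the floor. That an assay passed in 1 setting and not in the other does not show a difference, so the difference of the effects was tested by itself. Of 135 assays, 8 were called (5.93%): the effect was more positive without Dicer1 for 4 (2.96%) and more negative for 4 (2.96%), and 27 had an unadjusted p under 0.05. All 8 were among the 23 called with Dicer1, an overlap that is partly built in because the effect with Dicer1 is a term of the difference. With no scaling, 0 of the 8 were called, although each kept its direction.

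miR-29a, whose family represses collagen and other matrix genes and rises as neurons mature, had the largest difference of effects. Its levels were −2.05, −2.04 and −2.55 in WT and 1.51, 1.25 and 1.61 in DKO. They were 1.34, 1.25 and 1.27 in DicKO and 1.01, 1.00, −1.41 and 1.19 in DKO_DicKO. WT and DKO_DicKO 3 were low, and all other samples lay together between 1.00 and 1.61. The DKO effect was 3.67 with Dicer1 and −0.84 ± 0.52 without it, a difference of −4.51 ± 0.77 (95% interval −6.22 to −2.80, adjusted p = 0.00628). Without DKO_DicKO 3 the effect in the absence of Dicer1 was −0.23.

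For miR-181a and miR-296 the signs of the effects were opposite. miR-181a stood at 1.23, 1.74 and 1.21 in WT and at 0.73, 0.74 and 0.71 in DKO, so that every DKO sample was below every WT sample, the reverse of the order without Dicer1. Its effect was −0.67 with Dicer1 and 0.73 without, a difference of 1.39 ± 0.25 (95% interval 0.84 to 1.95, adjusted p = 0.00668). miR-296 stood at −1.46, −1.44 and −1.57 in WT and at −2.21, −2.35 and −2.18 in DKO. Its effect was −0.75 with Dicer1 and 0.90 without, a difference of 1.66 ± 0.30 (95% interval 0.98 to 2.33, adjusted p = 0.00668). The call for miR-181a was lost without DKO 1 and DKO_DicKO 4 together (adjusted p = 0.0525), and that for miR-296 at a detection limit of Cq 30 (0.08, adjusted p = 0.777).

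miR-218, a miRNA of motor and other neurons, and miR-195, of the miR-15/16 family that targets cell cycle genes, passed by less. miR-218 stood at 0.36, 0.52 and 0.80 in WT, −0.64, −0.28 and −0.61 in DKO, −0.06, 0.40 and 0.14 in DicKO, and 0.43, 0.58, 0.09 and 1.29 in DKO_DicKO. Only DKO was set apart from the other groups. The difference of effects was 1.51 ± 0.37 (adjusted p = 0.0350), from −1.07 with Dicer1 and 0.44 without. miR-195 stood at −0.16, 0.07 and −0.09 in WT, 1.35, 1.16 and 1.12 in DKO, 0.54, 0.47 and 0.12 in DicKO, and 0.47, 0.76, −0.28 and 0.11 in DKO_DicKO. DKO was again apart, here above the rest, and the difference of effects was −1.39 ± 0.32 (adjusted p = 0.0265), from 1.28 and −0.11. Each of these calls was lost without any of 7 samples in turn: for miR-195 WT 1, WT 3, DKO 1, DKO 3, DicKO 1, DicKO 2 or DKO_DicKO 4, and for miR-218 WT 2, WT 3, DKO 1, DKO 3, DicKO 1, DicKO 3 or DKO_DicKO 2, with adjusted p-values of up to 0.0864 and 0.107.

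The remaining 3 calls involve groups at the floor. miR-497, the seed partner of miR-195, stood at −2.59, −2.17 and −2.59 in WT and at −1.31, −1.06 and −0.57 in DKO, with all 7 samples without Dicer1 at the floor. miR-365 stood at −2.47, −2.78 and −2.94 in WT and at −1.53, −1.55 and −1.16 in DKO, again with all 7 at the floor. Some of these wells had been detected below the floor and were raised to it, so the fitted effects without Dicer1 are set to 0, and the differences of −1.47 ± 0.24 (adjusted p = 0.00628) and −1.31 ± 0.19 (adjusted p = 0.00471) are the DKO effect with its sign turned. At a detection limit of Cq 35, which lowers the floor, they were −0.70 (adjusted p = 0.741) and −1.17 (adjusted p = 0.689). With no floor and undetected wells left missing they were −1.44 (adjusted p = 0.195) and −1.42 (adjusted p = 0.0578), close in size and not called. The call for miR-497 was also lost without DicKO 3, the sample that sets the floor (−1.23, adjusted p = 0.133). miR-744 stood at −1.99, −1.57 and −2.09 in WT and at −2.94, −2.59 and −2.94 in DKO, with DicKO at the floor. Its difference of effects was 1.48 ± 0.30 (adjusted p = 0.0131), 3.11 at a limit of Cq 35 and 2.41 with no floor (adjusted p = 0.0137), and the call held in both, so it did not need the floor. The call was lost without DKO 3 (adjusted p = 0.0525).

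**Figure D3:**
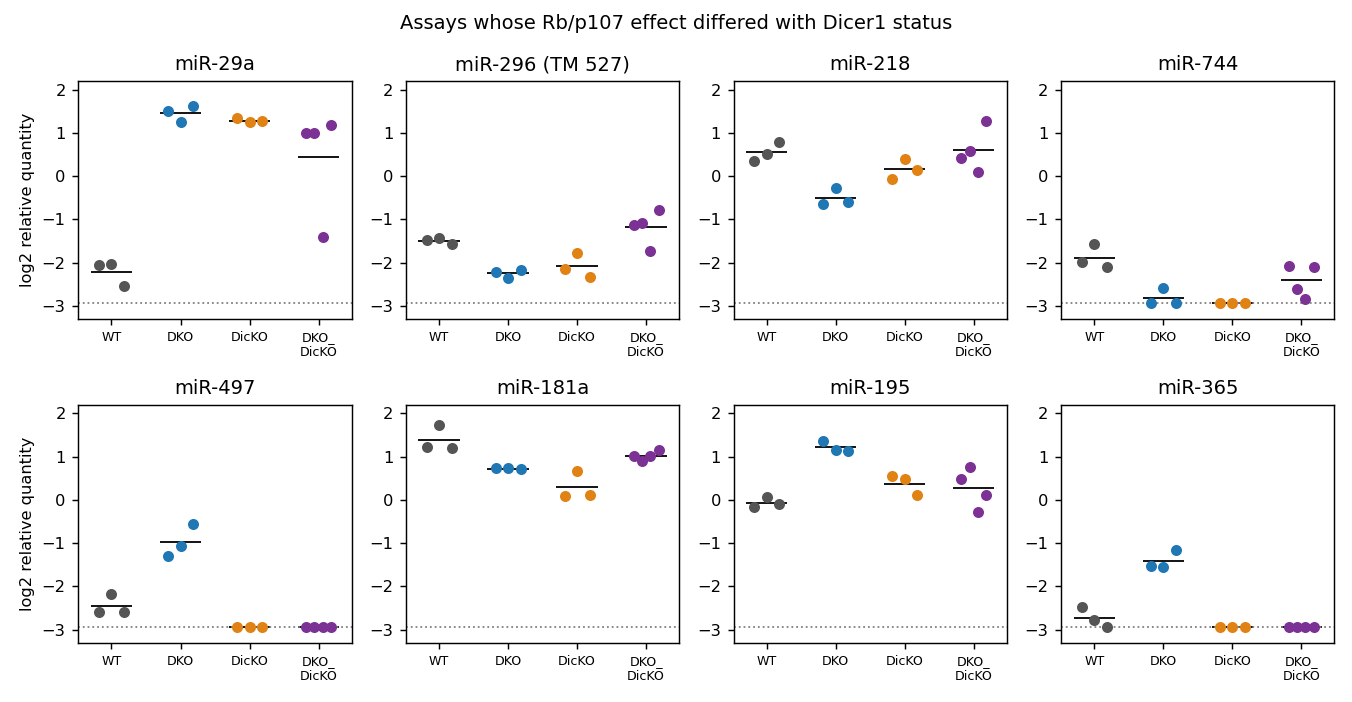
Level of each sample (log2 relative quantity) in WT, DKO, DicKO and DKO_DicKO for the 8 assays called in the difference of effects. Group means are lines and the floor of −2.94 is dotted. DKO_DicKO 3, at −1.41, is the low sample for miR-29a, and all 7 samples without Dicer1 lie at the floor for miR-497 and miR-365.

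**Figure D4:**
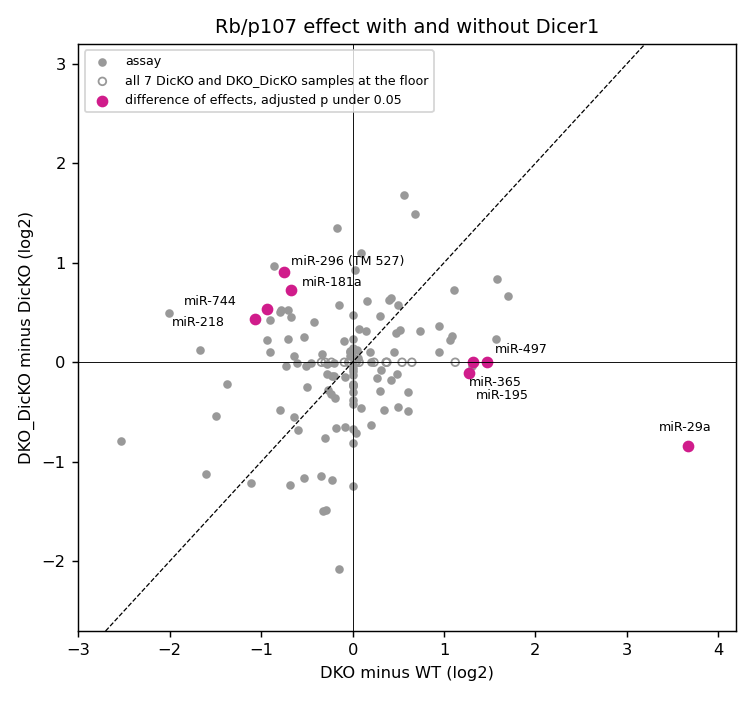
Effect of Rb and p107 loss with Dicer1 (horizontal, DKO minus WT, log2) against that without (vertical, DKO_DicKO minus DicKO, log2), 1 point per assay, with the line of equal effects dashed. The 8 assays called in the difference of effects are coloured, with miR-29a at 3.67 and −0.84, and open points have all 7 samples without Dicer1 at the floor.

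miR-17~92 is the cluster that the series sets against Rb and p53; it is induced by E2F and MYC and favours proliferation. Of its 11 assays, 7 were undetected in all 7 samples, among them miR-17, and 3 could be tested. All 3 had positive differences and 0 passed, with a median of 0.45 against −0.02 over all 99 assays. miR-19a, whose difference is that median, was detected in all 4 DKO_DicKO samples but in only 2 DicKO samples. It thus entered the test only through the group where it was high. The 2 assays detected in all 7 samples had a median of 0.42, against 0.05 over the 62 assays detected in all 7. miR-19b was at 1.29, 1.65 and 1.17 in DicKO and at 1.62, 1.27, 3.16 and 1.44 in DKO_DicKO. miR-92 was at 0.64, 0.51 and 0.51 in DicKO and at 0.33, 0.19, 2.09 and 0.91 in DKO_DicKO. The levels of DKO_DicKO 3 were high in both cases and the rest overlapped with DicKO. miR-19a was at the floor in 5 samples, at −2.87 in DicKO 2 and at −1.03 in DKO_DicKO 3. miR-20a, detected in too few samples to be tested, was at 0.47 in DKO_DicKO 3 and at −2.35 or lower in the other 6. The differences were 0.50 ± 0.39 for miR-19b, 0.33 ± 0.38 for miR-92 and 0.45 ± 0.47 for miR-19a, and without DKO_DicKO 3 they were 0.07, −0.08 and −0.03. In the related miR-106b~25 and miR-106a clusters 2 of 10 assays were tested, miR-106b (0.64) and miR-25 (0.57), and 0 passed. miR-25 was detected in all 4 DKO_DicKO samples and in 2 DicKO samples, and all DicKO values were at the floor. It too entered the test only through the group where it was high.

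The sensory cluster, miR-183, miR-96 and miR-182, is transcribed in photoreceptors and other sensory cells. All 4 of its assays were tested and 0 passed, with a median of −0.33. miR-183* was detected in all DicKO samples but not in DKO_DicKO 4, so it entered the test only through the group where it was high. The 3 assays detected in all 7 samples had a median of −0.12. miR-183 was at −0.13, 0.45 and −0.15 in DicKO and at 0.53, −0.27, −1.61 and −0.63 in DKO_DicKO, and differed by −0.55 ± 0.46. miR-182 was at 1.39, 1.68 and 1.45 in DicKO and at 1.45, 0.52, 2.71 and 1.84 in DKO_DicKO, and differed by 0.12 ± 0.40. In DKO_DicKO 3 these neighbours thus stood at opposite ends of their group, miR-183 lowest and miR-182 highest, and without it they differed by −0.19 and −0.25. miR-96 differed by −0.12 ± 0.28 and miR-183* by −1.12 ± 0.77, the latter with DKO_DicKO 4 undetermined and −0.36 without it.

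Of 17 assays of neural miRNAs, 6 were tested and 0 passed, with a median of 0.00. The 5 of them detected in all 7 samples had a median of 0.30. miR-124a, the most abundant miRNA of neurons, was at 0.71, 1.11 and 0.29 in DicKO and at 1.15, 0.76, −0.85 and 0.49 in DKO_DicKO. DKO_DicKO 3 was again the sample outside the range of the others, and the difference of −0.32 ± 0.43 became 0.09 without it. miR-9, a miRNA of neural progenitors, was at 2.77, 3.14 and 2.70 in DicKO and at 2.84, 2.89, 3.61 and 3.32 in DKO_DicKO, and differed by 0.30 ± 0.20, or by 0.14 without DKO_DicKO 3. Its other strand, miR-9*, was at 2.41, 2.54 and 2.11 in DicKO and at 2.70, 2.54 and 2.17 in DKO_DicKO 1 to 3, but undetermined in DKO_DicKO 4. Its difference of −1.24 ± 1.36 became 0.13 without that sample. miR-138 (0.47 ± 0.25), miR-218 (0.44 ± 0.26) and miR-375 (−0.29 ± 0.43) complete the list.

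The let-7 family with miR-125, miR-99 and miR-100 marks differentiation. Of 25 assays 9 were tested and 0 passed. let-7b, let-7e and miR-100 were detected in all DKO_DicKO samples but not in DicKO 3, so they entered the test only through the group where they were high, and they had the 3 highest differences of the list (1.68, 1.35 and 0.84). The 6 assays detected in all 7 samples had a median difference of 0.42, against 0.05 over the 62 assays detected in all 7. let-7g was at −0.05, 0.18 and 0.13 in DicKO and at 0.39, −0.15, −0.20 and −0.23 in DKO_DicKO, had the lowest difference of the list (−0.14 ± 0.18), and its groups overlapped. miR-125b was at 0.95, 1.13 and 0.64 in DicKO and at 1.23, 1.50, 0.84 and 1.51 in DKO_DicKO, a difference of 0.36 ± 0.22. DicKO 3 was the lowest DicKO sample for miR-125b, for let-7d at −1.31 and for miR-99b at −2.35. Without DicKO 3 the list's median over 10 tested assays was 0.04, against −0.12 over all assays.

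Of 14 assays of the miR-29 and miR-30 families 8 were tested and 0 passed. miR-29b*, miR-30a-3p and miR-30e-3p were detected in all DicKO samples and undetermined in DKO_DicKO 4, so they entered the test only through the group where they were high. Their differences of −1.16 ± 1.20, −0.81 and −0.68 became −0.07, 0.01 and 0.28 without DKO_DicKO 4. miR-29b* is also among the assays of near-constant Cq. The 5 assays detected in all 7 samples had a median of −0.49. miR-30c was at 3.39, 3.88 and 3.25 in DicKO and at 3.69, 3.06, 3.15 and 4.14 in DKO_DicKO, and the groups overlapped, with a difference of 0.00 ± 0.27. Over the 8 assays the median was −0.70, and −0.20 without DKO_DicKO 4.

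Some miRNAs form without Dicer1 or without Drosha; of 7 such assays 2 were tested and 0 passed. miR-320, cut from a short hairpin made without Drosha, was at −1.51, −0.99 and −1.65 in DicKO and at −1.15, −1.76, −1.74 and −1.35 in DKO_DicKO, a difference of −0.12 ± 0.21. miR-484, of the same kind, was at 0.06, 0.27 and 0.05 in DicKO and at −0.26, −0.32, 0.25 and −0.28 in DKO_DicKO, a difference of −0.28 ± 0.18. Without DKO_DicKO 3 the miR-484 samples of the groups would not overlap. Of 9 E2F-linked assays 3 were tested, miR-195 (−0.11), miR-16 (0.31) and miR-497, which was at the floor throughout. Of 10 p53-responsive ones 3 were tested (median −0.23, from −0.76 for miR-34c* to −0.02 for miR-192). Of 63 from the imprinted Dlk1-Dio3 cluster 5 were tested (median −0.22, from −0.67 for miR-673 to −0.04 for miR-434-3p). None of these passed. Only miR-34c* of the tested p53-responsive assays was detected in all 7 samples. For the Dlk1-Dio3 cluster 3 assays were, with a median of −0.22.

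Among the lowest Cq values of DKO_DicKO were miR-211 and miR-204, which are close relatives known from pigment epithelium, ciliary body and lens and also from retina. miR-211 was at 4.99, 5.19 and 4.44 in DicKO and at 6.08, 5.51, 3.85 and 5.35 in DKO_DicKO, and miR-204 at 4.16, 4.08 and 4.19 against 4.55, 4.71, 3.66 and 4.55. DKO_DicKO 3 was the lowest sample for both, and the differences were 0.33 ± 0.49 and 0.22 ± 0.24, or 0.76 and 0.45 without it. With miR-184, the third tested of 4 markers of these tissues, all 3 had positive differences, with a median of 0.33 and of 0.76 without DKO_DicKO 3, and their summed relative quantity (linear scale) ran from 40.2 to 53.6 in DicKO and from 27.4 to 91.8 in DKO_DicKO. The part of these tissues in the miR-184 difference was not tested. The other lowest mean Cq values belonged to miR-709 (20.2 ± 1.82 cycles, SD, n = 4, against 19.99 ± 1.69, n = 3, in DicKO), miR-30c (23.8 against 23.8) and miR-9 (24.2 against 24.5).

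Markers of other cells were detected in part. The red blood cell marker and all 5 epithelial markers were undetected in the 7 samples, and 0 of 6 muscle markers could be tested. A detected well at the floor adds 0.130 to a summed quantity, and the muscle sums of 0 to 0.261 in DicKO and 0.130 to 0.326 in DKO_DicKO lie at that height. Of 6 markers of white blood cells and microglia 3 were tested, miR-146b (0.66), miR-155 (−0.21) and miR-150 (−0.24). None of the 3 was detected in all 7 samples. The summed quantity of the 6 markers ran from 0.588 to 0.833 in DicKO and from 0.420 to 0.727 in DKO_DicKO. Of 4 vessel markers miR-126 was tested (−0.48), and the sums were 0.261 to 0.488 and 0.158 to 0.409. Of 6 retinal markers, of neurons and photoreceptors, 5 were tested, with sums of 11.6 to 15.9 and 11.6 to 19.9 and a median difference of −0.12. None of the marker assays passed.

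**Figure D5:**
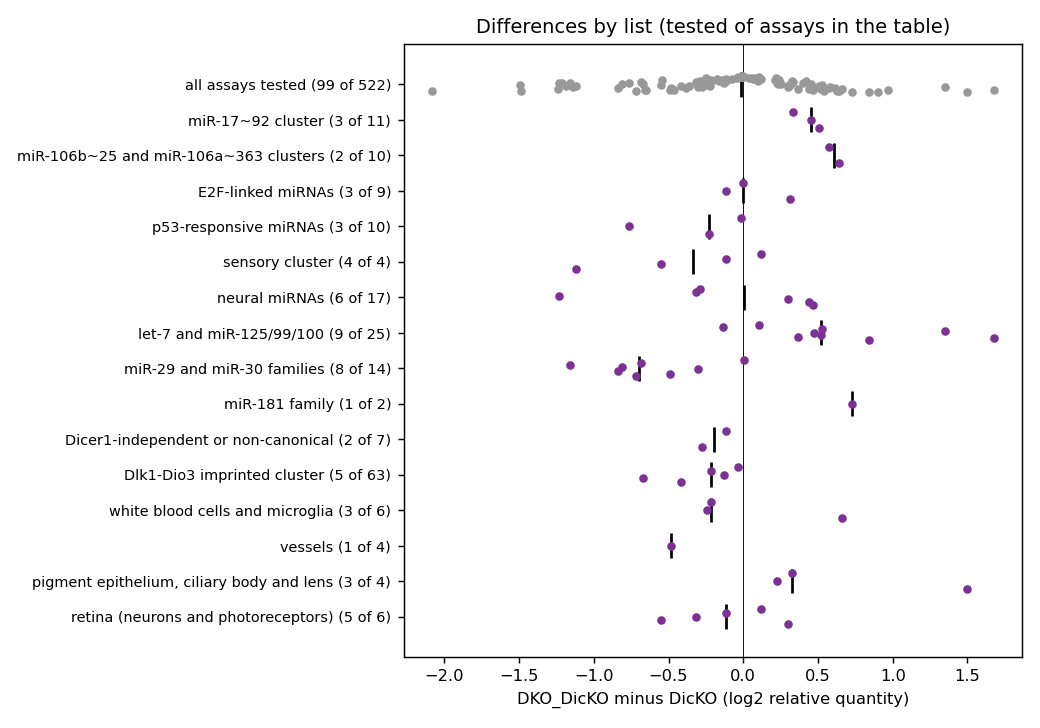
Difference of level, DKO_DicKO minus DicKO (log2 relative quantity), of each tested assay by list, with the list's median as a vertical bar and the numbers of tested and of all assays in brackets. Medians lie at 0.52 for let-7 with miR-125, miR-99 and miR-100 and at −0.70 for miR-29 with miR-30, against −0.02 for all 99 assays, with undetermined wells at the floor included, and no assay passed the test.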

How the data were processed

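The authors deposited quantification cycles (Cq) as a table that they describe as not normalized, a unit without a fixed scale here recorded as other; per the labels' protocols, microRNeasy total RNA went into a reverse transcription with 522 stem-loop primers, then 14 cycles of pre-amplification and detection by FAM. The software, threshold and baseline are not given in the sources used here. No small RNA control was used, and 10 empty unnamed columns were left out.

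Levels on the log2 scale were computed from the deposited Cq values by scaling to the mean of 61 assays with a value in each of the set's 13 samples, with a floor of −2.94. R 4.3.3 with limma 3.58.1 fitted the 13 samples together (eBayes, two-sided), and calls were made at a Benjamini-Hochberg adjusted p under 0.05 over the tested assays. Testing required detection in all samples of DicKO or of DKO_DicKO; the difference of effects also took assays detected in all samples of WT or of DKO. The script was tested on simulated data. Depth in reads does not apply: the number of samples and the Cq limit the precision.

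The members, lists and tests were chosen with earlier results of these data known. Named miRNAs were the 20 with the lowest p, those called in the difference of effects, the 5 with the lowest Cq, and the extremes of some lists. Every tested member was named for the miR-17~92, sensory and neural lists and for the list of miRNAs that form without Dicer1 or without Drosha. Others were named after their values were seen. All 16 miRNAs looked for in RefSeq matched. Alternatives concerned scaling, the detection limit, the floor, the filter, the variance model, the replicate number as a block, a fit of the 2 groups alone, and leaving out each sample.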

Additional observations from a re-analysis of the deposited data

Results flagged for a closer look

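For 27 of the 37 named assays the 4 DKO_DicKO levels could be tested for a sample far from the rest (Dixon's criterion, which chance meets in about 1 of 20 groups), and 2 met it. miR-484 was at 0.25 in DKO_DicKO 3 and between −0.32 and −0.26 in the others. miR-29a was at −1.41 in DKO_DicKO 3 and between 1.00 and 1.19 in the others.

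The limma test of the difference between the effects of Rb and p107 loss with and without Dicer1 called 8 assays. The effect without Dicer1 minus that with it was −4.51 for miR-29a, −1.47 for miR-497, −1.39 for miR-195 and −1.31 for miR-365. It was 1.66 for miR-296, 1.51 for miR-218, 1.48 for miR-744 and 1.39 for miR-181a. For miR-497 and miR-365 all 7 samples without Dicer1 lay at the floor, so these values are the DKO effect with its sign turned.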

How the results depend on the processing

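With 3 or 4 samples per group, and an undetermined well that is no proof of a low level, only large differences could be seen. The count of assays called between DKO_DicKO and DicKO, 0 in the report, was 7 with scaling to the median and 1 at a detection limit of Cq 30. Leaving out single samples gave 0 to 3, the 3 without DKO_DicKO 3. Every other alternative gave 0. The count for the difference of effects, 8 in the report, was 0 without scaling, 18 at a limit of Cq 30, 5 with undetected values left missing and 5 with only assays detected in every sample compared. It was also 5 with such assays and no floor, an alternative chosen after seeing the data. Leaving out single samples gave 5 to 10, the 5 without DKO 3. The other alternatives kept it within 1.5 times. Of the 8, miR-29a was called under every alternative that gave it a value except no scaling.

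The difference in mean Cq ran from −0.970 to 0.806 cycles and that in the number of detected assays from −20.25 to 18.75 when single samples were left out. Neither has a settled direction.

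With scaling to the median the differences of miR-124a, miR-320, miR-484 and miR-96 turned to 0.0173, 0.217, 0.0583 and 0.217. miR-9* turned to 0.12 with undetected values missing and to 0.12 with the replicate block, both of which leave out its undetermined well, and to 0.13 without DKO 1 and DKO_DicKO 4 together, which was likewise chosen after seeing the data. Leaving out single samples gave −0.58 to 0.0892 for miR-124a, −0.30 to 0.0816 for miR-320, −0.35 to 0.10 for miR-96, −1.76 to 0.13 for miR-9*, −0.25 to 0.49 for miR-182, −0.0255 to 0.61 for miR-19a, −0.0807 to 0.56 for miR-92 and −0.88 to 0.0456 for miR-375.

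The replicate numbers did not meet the criterion for a pairing. Deviations of level correlated at −0.06, −0.34 and 0.46 between same-numbered DicKO and DKO_DicKO samples, and at −0.22, 0.26 and 0.06 between same-numbered WT and DKO samples. The mean Cq of WT and DKO did run in parallel by number, with DKO later by 0.351, 0.315 and 0.265 cycles. The fit with the replicate number as a block, over the samples that share numbers, called 0 assays between the groups and 10 in the difference of effects.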
